A study of Mus musculus with 8 samples.

Results

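The promoter mark H3K4me3 was compared between 2 states of a mouse otic cell line, proliferating iMOPs and the neurons derived from them. The members were all peaks in the deposited H3K4me3 list of each state, 7472 for proliferating cells and 5625 for neurons, which is 13097 of the 26724 peaks in the 6 peak lists of the series. A peak was called shared when it touched a peak of the other state by at least 1 bp, and state-only when it did not. The iMOPs are wild-type, immortalized, multipotent progenitors from the inner ear, and all libraries came from this single line. Proliferating cells grew in DMEM/F12 with B27, carbenicillin and 20 ng/ml bFGF, a growth factor that acts through FGF receptors. Neurons were kept in Neurobasal medium with N21, L-glutamine and 1 µM K03861, an inhibitor of the cell cycle kinase CDK2, with no bFGF named. Each state had 1 H3K4me3 library from 500000 cells. It was made by CUT&Tag, in which an antibody brings a transposase to the mark and the enzyme cuts and tags the DNA there. With 1 library a state there was no replicate check and no test, so every difference below is between 2 libraries and their lists. Whether a list pooled several libraries is not stated in the labels.

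H3K4me3 is trimethylation of lysine 4 on histone H3. Enzymes of the SET1 and MLL family place it on the nucleosomes around transcription start sites, mainly at promoters rich in CpG, and it marks promoters that are active or ready for activation. Unusually wide stretches of the mark are known at genes that define a cell's identity. In the inner ear, progenitors kept in cycle by growth factors leave the cell cycle as they become spiral ganglion neurons, the cells that carry sound information to the brain.

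The promoters below are examples of starts with the mark in 1 list only, and they are not the strongest such cases. By total signal Elavl3 and Lgi2 ranked at percentiles 21.2 and 19.9 of the neuron list. The neuron-only genes Fam20c and Shisa8, not shown, ranked at percentiles 81.9 and 81.2. The first set of sequences belongs to genes with the mark in proliferating cells only: Dusp6 and Etv5, which are induced by FGF signalling, Id3, an inhibitor of neuronal basic helix-loop-helix factors, and Gadd45b, a stress and growth arrest gene. The second set belongs to genes with the mark at this start in neurons only: Elavl3, a neuronal RNA-binding protein, Nav2, a cytoskeletal protein of growing axons, Lgi2, a secreted neuronal protein, and Rasd2, a small GTPase of the brain. Each runs 5′ to 3′ from RefSeq's GRCm38.p6 (the mm10 sequence), starts 250 bases before the annotated transcript start and stops where the annotated gene begins. Elavl3 and Nav2 are shorter because the gene model reaches into that window. Capitals mark exact matches, on either strand, to any of 10 short motifs. These were the TATA box TATAAA and the GC box GGGCGG. A further one was the CCAAT box, and there were 2 E boxes, CAGCTG, bound by neural helix-loop-helix factors, and CACGTG, bound by MYC-like ones. Motifs of factor families were CCGGAA for ETS proteins, TGACTCA for AP-1 and TGACGTCA for CREB. The last were ACAATGG for SOX proteins and GATAAG for GATA proteins.
Dusp6 (chr10:99262981-99263230, plus strand): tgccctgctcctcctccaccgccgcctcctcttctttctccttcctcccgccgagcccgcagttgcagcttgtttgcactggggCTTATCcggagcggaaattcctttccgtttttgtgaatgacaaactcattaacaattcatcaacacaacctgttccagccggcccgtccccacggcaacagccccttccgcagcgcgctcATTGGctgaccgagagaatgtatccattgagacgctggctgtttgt
Etv5 (chr16:22439571-22439820, minus strand): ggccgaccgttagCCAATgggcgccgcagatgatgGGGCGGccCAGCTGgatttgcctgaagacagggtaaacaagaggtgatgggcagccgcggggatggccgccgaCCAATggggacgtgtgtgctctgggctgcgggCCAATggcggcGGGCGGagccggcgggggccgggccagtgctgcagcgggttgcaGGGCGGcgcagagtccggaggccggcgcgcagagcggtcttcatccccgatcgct
Id3 (chr4:136143572-136143821, plus strand): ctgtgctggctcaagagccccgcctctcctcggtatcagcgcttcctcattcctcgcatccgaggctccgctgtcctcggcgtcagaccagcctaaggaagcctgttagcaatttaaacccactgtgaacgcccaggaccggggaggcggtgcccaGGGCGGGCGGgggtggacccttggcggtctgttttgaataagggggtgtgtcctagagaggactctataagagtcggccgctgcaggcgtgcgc
Gadd45b (chr10:80929841-80930090, plus strand): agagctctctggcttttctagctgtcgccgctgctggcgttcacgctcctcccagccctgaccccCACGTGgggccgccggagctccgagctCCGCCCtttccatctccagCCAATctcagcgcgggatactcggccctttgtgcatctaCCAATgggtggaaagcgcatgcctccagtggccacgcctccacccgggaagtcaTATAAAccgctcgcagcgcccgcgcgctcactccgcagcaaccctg
Elavl3 (chr9:22052147-22052273, minus strand): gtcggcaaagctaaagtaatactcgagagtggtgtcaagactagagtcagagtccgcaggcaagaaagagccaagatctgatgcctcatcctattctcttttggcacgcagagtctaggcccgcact
Nav2 (chr7:48958823-48959062, plus strand): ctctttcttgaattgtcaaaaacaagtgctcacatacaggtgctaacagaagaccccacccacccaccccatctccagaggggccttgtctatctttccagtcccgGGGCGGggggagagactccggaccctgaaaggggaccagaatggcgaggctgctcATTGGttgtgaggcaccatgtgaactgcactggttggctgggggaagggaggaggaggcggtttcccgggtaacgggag
Lgi2 (chr5:52566307-52566556, minus strand): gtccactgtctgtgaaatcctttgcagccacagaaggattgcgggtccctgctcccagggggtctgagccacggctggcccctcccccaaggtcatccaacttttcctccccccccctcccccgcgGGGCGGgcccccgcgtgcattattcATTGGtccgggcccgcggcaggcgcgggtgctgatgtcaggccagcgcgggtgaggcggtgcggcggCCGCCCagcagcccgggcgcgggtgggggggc
Rasd2 (chr8:75213694-75213943, plus strand): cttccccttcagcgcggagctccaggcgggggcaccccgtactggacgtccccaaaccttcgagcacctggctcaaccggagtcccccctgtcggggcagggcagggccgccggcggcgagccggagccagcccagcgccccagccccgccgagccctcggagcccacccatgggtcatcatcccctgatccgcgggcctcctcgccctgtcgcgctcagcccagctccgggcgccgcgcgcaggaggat
In the printed stretches Etv5 held 7 matches, Gadd45b 5, Lgi2 3, and Dusp6, Id3 and Nav2 2 each, and Elavl3 and Rasd2 held 0. A match is a description of letters only. The matches in Id3 overlap and appear as 1 run of capitals. Over the windows of 300 bases of all 17492 genes with a promoter sequence, GGGCGG was in 46.6%, CCAAT in 39.0%, CCGGAA in 19.2%, CAGCTG in 15.1%, TATAAA in 13.2%, CACGTG in 7.83%, GATAAG in 6.81%, TGACTCA in 4.50%, ACAATGG in 2.92% and TGACGTCA in 2.29%.

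The marker genes of the labelled states were looked at first. Sox2, a progenitor factor of the ear, had one of the widest peaks in both lists, 26300 bp in proliferating cells against 19950 bp in neurons. Tubb3, a neuronal tubulin, had the mark in both states, with a peak of 6400 bp in proliferating cells against 10650 bp in neurons. The otic neuronal factors Neurog1, Neurod1 and Gata3 had no peak at an end in either list. Of 26 neuronal transcription factor genes, 9 were marked in proliferating cells and 7 in neurons, and of 30 synapse and ion channel genes 5 and 6. Markers of other cells were mostly unmarked: 0 of 15 liver genes in either state, 1 of 14 blood and endothelium genes (Cd68, in proliferating cells only), 1 of 16 hair cell genes (Myo6, in both), and 5 of 16 glial genes in proliferating cells against 2 in neurons. The list for mesenchyme and epithelial-mesenchymal transition had the mark at 5 of 16 genes in proliferating cells, as many as the glial list, and at 4 in neurons. Among all 21887 protein-coding genes, 8224 were marked in proliferating cells and 6561 in neurons. Neither the neuronal transcription factors nor the synapse and ion channel genes were marked more often than that in either state. Several defining genes of otic neurons were thus without the mark in the list labelled neurons, and H3K4me3 itself does not measure transcription.

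The proliferating list was longer and reached weaker peaks. Its peaks covered 31.3 Mb with a median width of 3700 bp, and the neuron peaks covered 26.6 Mb with a median width of 4300 bp. Of the proliferating peaks, 5529 (74.0%, exact interval 73.0 to 74.99%) were shared and 1943 were listed in proliferating cells only, which is 26.0%. Of the neuron peaks, 5518 (98.1%, 97.7 to 98.4%) were shared and 107, or 1.90%, were listed in neurons only. These intervals are Clopper-Pearson intervals at 95% and cover counting error only.

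The lists differed in the lowest signal that they held. Each deposited highest signal was a whole multiple of a smallest unit, 0.356 in the proliferating list and 0.372 in the neuron list, within 0.01 units for 100% of peaks. Totals are given here as numbers of this unit, called steps, summed over bins of 50 bp. The files do not say what a step stands for, so a difference in steps cannot be told apart from a difference in depth or scaling. The lowest total listed was 3881 steps in proliferating cells and 7772 steps in neurons, a floor 2.00 times as high. Peaks matched 1 to 1 (5439 pairs) held more steps in neurons too, by a median ratio of 1.501, and the ratio was above 1 in 96.5% of pairs.

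**Figure D1:**
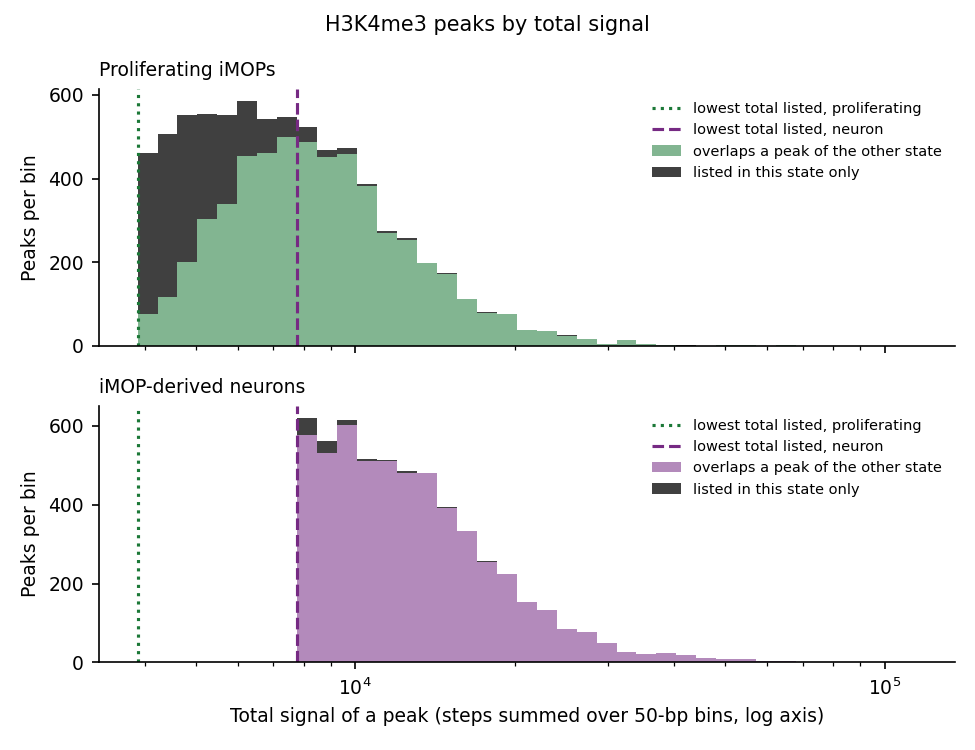
Number of H3K4me3 peaks (vertical axis) by total signal in steps (horizontal log axis) in proliferating iMOPs (top) and neurons (bottom); coloured bars are shared peaks, dark bars are peaks listed in that state only, and the dotted and dashed lines are the lowest totals listed, 3881 and 7772 steps. Most dark bars of the top panel lie to the left of the neuron floor.

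Most proliferating-only peaks lay under that floor. Of the 1943 proliferating-only peaks, 1853 (95.4%, interval 94.3 to 96.3%) held fewer than 7772 steps. Of the 3169 proliferating peaks at or above 7772 steps, 3079 were shared and 90 were not, which is 2.84%. With the neuron floor divided by 1.501, at 5177 steps, 5788 proliferating peaks remained and 733 of them were unmatched, while 573 neuron peaks had no partner in that shortened list. With both lists held to the same length by total signal, which makes the 2 counts nearly equal by construction, 654 proliferating peaks were unmatched.

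Stronger proliferating peaks were more often found in neurons. The list was divided into 10 nearly equal groups by total signal. In the lowest 18.9% were shared, in the fifth 84.5%, and in the highest 98.7%. Grouped by the highest signal, the lowest had 46.0% and the highest 98.5%. Grouped by width, the lowest had 46.2%, the ninth 87.4% and the highest 86.5%. Percentiles below are ranks by total signal within a list, from 0 for the weakest peak to 100 for the strongest. Proliferating-only peaks had a median percentile of 16.8, against 62.1 for shared peaks. Neuron-only peaks had a median percentile of 14.4, against 50.8 for shared ones. State-only peaks were thus among the weaker members of their own list in both states.

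**Figure D2:**
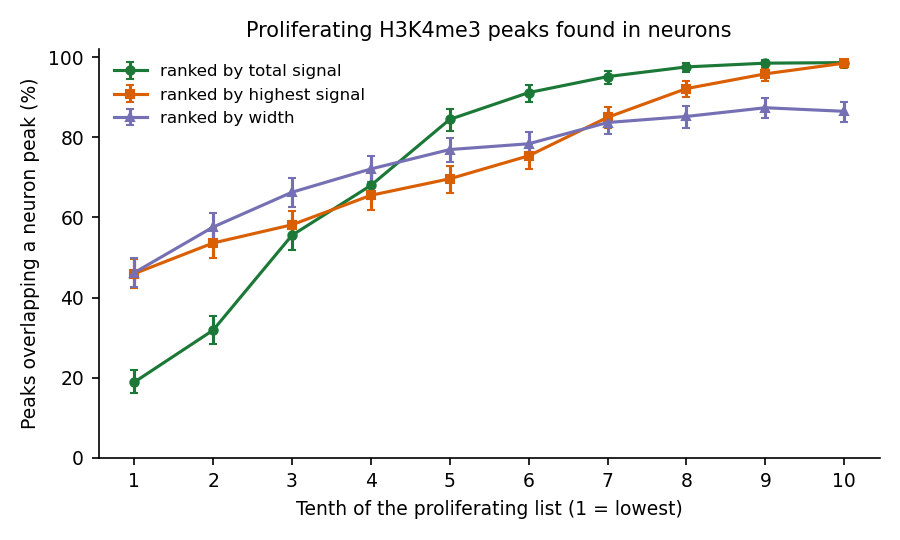
Share of proliferating H3K4me3 peaks that overlap a neuron peak (vertical axis, %), in 10 groups of the proliferating list by rank, from lowest to highest (horizontal axis). Circles rank peaks by total signal, squares by highest signal, triangles by width, and bars are exact 95% intervals. Groups by width are unequal, with 647 to 829 peaks each. By total signal the share goes from 18.9% to 98.7%.

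Genes were assigned a peak when it lay within 1 kb of either annotated end, so an end may be the start of the gene or its 3′ end, and neighbouring genes can share a peak. Of 21887 protein-coding genes, 6427 had H3K4me3 at an end in both states. A further 1797 had it in the proliferating list alone, and 134 in the neuron list alone. The 1797 are 21.9% of the 8224 genes marked in proliferating cells, and the 134 are 0.981% of the 13663 genes without the mark there. At transcript starts alone, known for 17492 genes, the counts were 5214, 1492 and 79. Of the 1797, 1644 had a proliferating peak under the neuron floor and 69 kept a peak nearby that no longer reached the gene end. The remaining 84 had a peak above the floor and no overlapping neuron peak. They make 2.10% of the 3996 genes with a proliferating peak that strong.

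Of the 12 strongest separate peaks at genes without a neuron mark, 8 were still listed in neurons and only ended short of the gene: Lmf1, Trappc3, Sema4b, Sez6, Rassf1, Trim7, Ldb1 and Aspscr1. The other 4 had no neuron peak, at H2ac18, Gm40367, Dusp6 and Gas8.

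Among the 84 genes the strongest peak, with 41586 steps, lay over H2ac18, H2ac19, H3c14 and H3c15, replication-dependent histone genes on chromosome 3, at percentile 99.9 of the proliferating list. These histone genes are near-identical copies, so the placing of reads among them is uncertain. Id3 had a peak of 11000 bp (chr4:136138751-136149750) with 14919 steps, at percentile 93.3. Gadd45b had a peak of 15600 bp with 12558 steps (percentile 87.8), and Hes1, the main repressor downstream of Notch, one of 5850 bp with 11959 steps (percentile 85.9). By highest signal the Gadd45b peak ranked at percentile 2.98 only, against 73.4 for Id3 and 54.7 for Hes1. None of these 3 genes had a neuron peak over its proliferating peak. Also in this group were Igfbp4 and Igfbp3, which bind insulin-like growth factors, Egfr, the receptor of epidermal growth factor, Fgf18, Spred3, a relative of the FGF feedback inhibitor Spred1, Socs1, a cytokine feedback inhibitor, Plk2, a kinase induced by mitogens, Klf11 and Klf15, zinc finger factors, and Gins2, part of the replicative helicase. Their proliferating peaks held between 7795 steps (Socs1) and 14462 steps (Igfbp4). These names were picked after their values were seen, except Hes1, Id3 and Gins2.

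Genes of FGF signalling and feedback had the highest share in proliferating cells only among the lists with 10 or more marked genes. The list has 18 genes, written with earlier results of these data known, and bFGF was named only for the proliferating medium. In proliferating cells 15 had the mark and in neurons 8. The 7 listed in proliferating cells only are 46.7% of the 15, beside 21.9% of all marked genes. Of the 11 with a peak above the neuron floor, 3 had no neuron peak, beside 2.10% of all such genes. No member was listed in neurons only. With lists of equal length by total signal the number in proliferating cells only was 6, and with the floor at 5177 steps it was also 6.

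Among the receptors, Fgfr1 kept the mark in both states, with 8388 steps at percentile 63.7 of the proliferating list and 11644 steps at percentile 46.9 in neurons. Fgfr2 had 5397 steps (percentile 26.2) and Fgfr3 4907 steps (percentile 18.2) in proliferating cells, both under the neuron floor, and neither had a neuron peak. The ETS transcription factor genes Etv4 and Etv5 are standard targets of FGF signalling. Etv5 had a peak of 5300 bp with 9101 steps, at percentile 69.8, and Etv4 one of 6402 steps at percentile 41.4, both in proliferating cells only. Their relative Etv1 was marked in both states, at percentiles 87.9 and 61.8, over 8400 bp and 5150 bp. The wider proliferating peak also covered a second Etv1 start that the neuron peak did not reach.

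Feedback inhibitors of the pathway made up the rest, apart from Fos and Egr1, which are also immediate early genes. Dusp6, the phosphatase that switches off ERK, had a peak of 10200 bp (chr10:99259751-99269950) that spanned the whole gene, with 18221 steps at percentile 96.9, and no neuron peak. Spry4, a Sprouty inhibitor, had 14996 steps (percentile 93.5) and Spry1 6876 steps (percentile 47.1), again in proliferating cells only. The Spry4 peak also reached an end of the neighbouring gene Arhgap26. Spry2 was marked in both states, at percentile 95.5 of the proliferating list and percentile 80.2 in neurons. Dusp4 had peaks of the same width, 6250 bp, at percentiles 96.8 and 57.7, and held fewer steps in neurons, 12941 against 18026. Spred1 and Spred2 were at percentiles 71.6 and 91.5 in proliferating cells and at percentile 30.7 and percentile 73.2 in neurons. All 8 members kept in both states ranked lower in the neuron list, with a median difference (neuron minus proliferating) of -32.6 percentile points. Over all 6427 genes marked in both states the median was -6.80, with quartiles of -19.1 and 1.15, so most of those ranked lower too.

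Immediate early genes, which growth factors switch on within minutes, also held lower ranks in the neuron list. Of the 16 genes, 13 were marked in proliferating cells and 10 in neurons. Egr2, Egr3 and Atf3 were listed in proliferating cells only (23.1% of 13, near the 21.9% of all marked genes), all under the neuron floor. The 10 kept in both states all ranked lower in the neuron list, with a median difference of -39.9 percentile points. Over all 6427 genes marked in both states the median was -6.80 (quartiles -19.1 and 1.15), so most of those also ranked lower. Junb went from percentile 95.6 over 13200 bp to 39.3 over 6950 bp, and Fos from percentile 81.7 to 30.0. Egr1 was at percentiles 88.5 and 46.8, with 5900 bp and 3300 bp. Ier2 and Fosl1 differed least, at percentiles 99.0 and 98.6 and percentiles 64.0 and 62.0. Fos and Egr1 belong to both lists, so the lists are not independent.

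**Figure D3:**
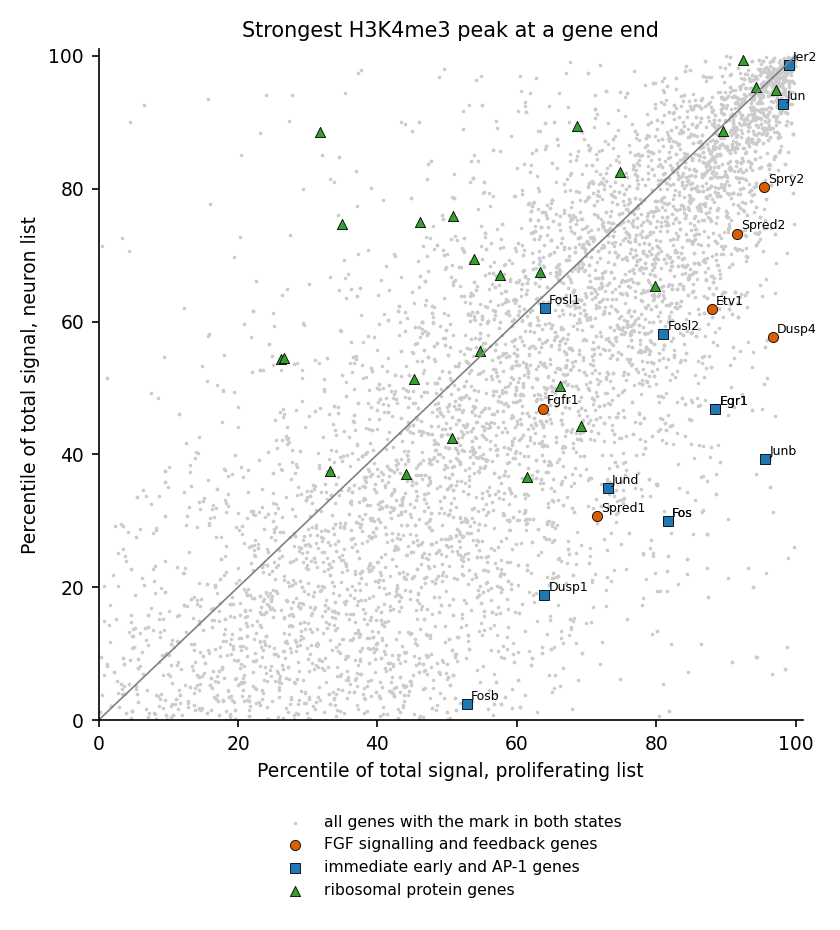
Percentile of total signal of the strongest H3K4me3 peak at a gene end in the proliferating list (horizontal axis) and in the neuron list (vertical axis) for the 6427 genes marked in both states (grey), with FGF genes (circles), immediate early genes (squares, drawn over Fos and Egr1) and ribosomal protein genes (triangles); the line marks equal percentiles. All FGF and immediate early genes lie under the line, with Ier2 nearest to it, and so do most grey points.

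Progenitor regulators of the ear showed fewer marks in neurons, mainly among weak peaks. Of 24 genes 15 were marked in proliferating cells and 9 in neurons, so 6 of the 15 were listed in proliferating cells only, beside 21.9% of all marked genes. Among them were Eya1, Otx1, Gbx2 and Id3. Of the 6 only Id3 was above the neuron floor. Eya1 held 4218 steps and Gbx2 6654 steps, and with lists of equal length the number was 2. Hmga2, a chromatin protein of stem cells, was kept but went from percentile 94.5 to 9.47, and Sox9 from percentile 88.6 to 37.1. Sox2, Myc, Prox1 and Lfng lay within 5 points in both states. In the Notch list only Hes1 of 11 marked genes was without a neuron peak, and Hes5, a second Notch-induced repressor, went from percentile 95.9 to 57.2, while Dll1, a ligand, stayed at percentile 99.4 in both.

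Cell cycle genes were marked in both states in most cases, as were marked genes as a whole, of which 21.9% lacked a neuron peak at an end. Of 16 cyclin and cyclin-dependent kinase genes marked in proliferating cells, 14 were marked in neurons, and the exceptions were Ccnd1 (5488 steps, percentile 27.7), the growth factor-dependent cyclin D1, and Cdc25c (4518 steps, percentile 11.1), a phosphatase of mitotic entry. These 2 are 12.5% of the 16. Of 14 marked DNA replication genes 13 were kept, with Gins2 as the exception (7.14%). Cdkn1b, which encodes the inhibitor p27, had a peak of 16950 bp with 28063 steps in proliferating cells. In neurons 2 peaks lay under it, one of 9900 bp with 31304 steps at the gene and one of 6050 bp with 17170 steps. Cdkn2c, Btg1, Btg2, Gadd45a and Gadd45g, inhibitors of division, each ranked higher in neurons by 6.23 to 13.3 points. The other 5 of the 10 cell cycle exit genes marked in both states ranked lower, among them Cdkn1b with a difference of -1.82 points, Rbl2 with -19.7 and Cdkn2d with -47.1. For Cdkn2d the neuron peak did not come within 1 kb of its transcript start.

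The neuron-only list was short. Of the 134 genes, 91 had no proliferating peak at all at that place and 43 had a proliferating peak nearby that in neurons also reached the gene end. The strongest entries were nearly all of the second kind: Cops6, Plppr3, Boll, Flot1, Gnb3, Klhl35, Snx32, Plekho1, Msh4, Tmem230 and Mymx. Their neuron peaks ranked from percentile 97.3 to 84.5. At transcript starts, Plppr3, Boll, Klhl35 and Tmem230 had the mark in neither state, and Plekho1 had it in both. Cops6 and Msh4 had it in neurons only, and for Flot1, Gnb3, Snx32 and Mymx no start was known. Counting 1 gene a peak, Nav2 was the only one of the 12 strongest with no proliferating peak there, with 17617 steps over 7100 bp (percentile 82.5). Of the 560 list genes found, 283 were marked in proliferating cells, and 45 of these (15.9%, beside 21.9% of all marked genes) lacked the mark in neurons. Among the other list genes 4 were neuron-only, beside 0.981% of all genes without the proliferating mark: Elavl3, Gria2, Sema7a and Plxnd1.

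Those 4 were in the lower or middle part of the neuron list. Elavl3 had a peak of 6100 bp with 9257 steps, at percentile 21.2. Gria2, an AMPA-type glutamate receptor subunit, had one of 3800 bp with 9438 steps (percentile 23.4). Sema7a, a membrane-anchored semaphorin that promotes axon growth, had 9550 bp and 12877 steps (percentile 57.1), and Plxnd1, a semaphorin receptor, 8700 bp and 11784 steps (percentile 48.3). Further neuron-only genes were chosen after their values were seen. They were Map6 (12854 steps), which stabilizes microtubules, Rasd2 (12441), Cdk5r1 (9284), the neuronal activator of CDK5, and Lgi2 (9155). Camsap3 (8783), which caps microtubule ends, and the remodeller gene Chd7 (9002) were also among them. The list was mixed, and genes of other roles with no proliferating peak there included Fam20c (17412 steps), Kat6a (11951), Ddr2 (10048), Rpl37a (8790), Tfdp1 (8768) and Bub1b (8101). The picked names thus do not show how often neuron-only genes are neuronal.

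Axon guidance genes went in both directions. In the list of semaphorins, plexins and neuropilins 15 were marked in proliferating cells and 13 in neurons. Sema3f, Sema4b, Sema4d and Plxna3 were listed in proliferating cells only, 26.7% of the 15, beside 21.9% of all marked genes. Sema7a and Plxnd1 were listed in neurons only, and 14 members were marked in neither state. Of all genes without the mark in proliferating cells, 0.981% were neuron-only. For Sema4b the neuron list held a peak of 9850 bp that began farther inside the gene and covered a later start, while the proliferating peak of 14900 bp took in both starts. Of 9 marked Slit, Robo and netrin genes, the netrins Ntn1 and Ntn4 and the netrin receptor gene Unc5c were in proliferating cells only. They held 6134 to 7109 steps, under the neuron floor, and are 33.3% of the 9, beside 21.9% of all marked genes. Dcc, the other main netrin receptor, was marked in both, at percentiles 87.2 and 96.2. All 13 marked Eph receptor and ephrin genes were marked in both states, among them Epha4 with 11724 and 13830 steps (percentiles 85.2 and 64.5). Of 14 marked NuRD genes 11 were kept and 3 (21.4%, near the 21.9% of all marked genes) were not, with Chd4 kept at percentiles 93.1 and 97.2. Chd3, an alternative ATPase of the complex (9960 steps), Mbd2 and Rbbp7 were in proliferating cells only.

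**Figure D4:**
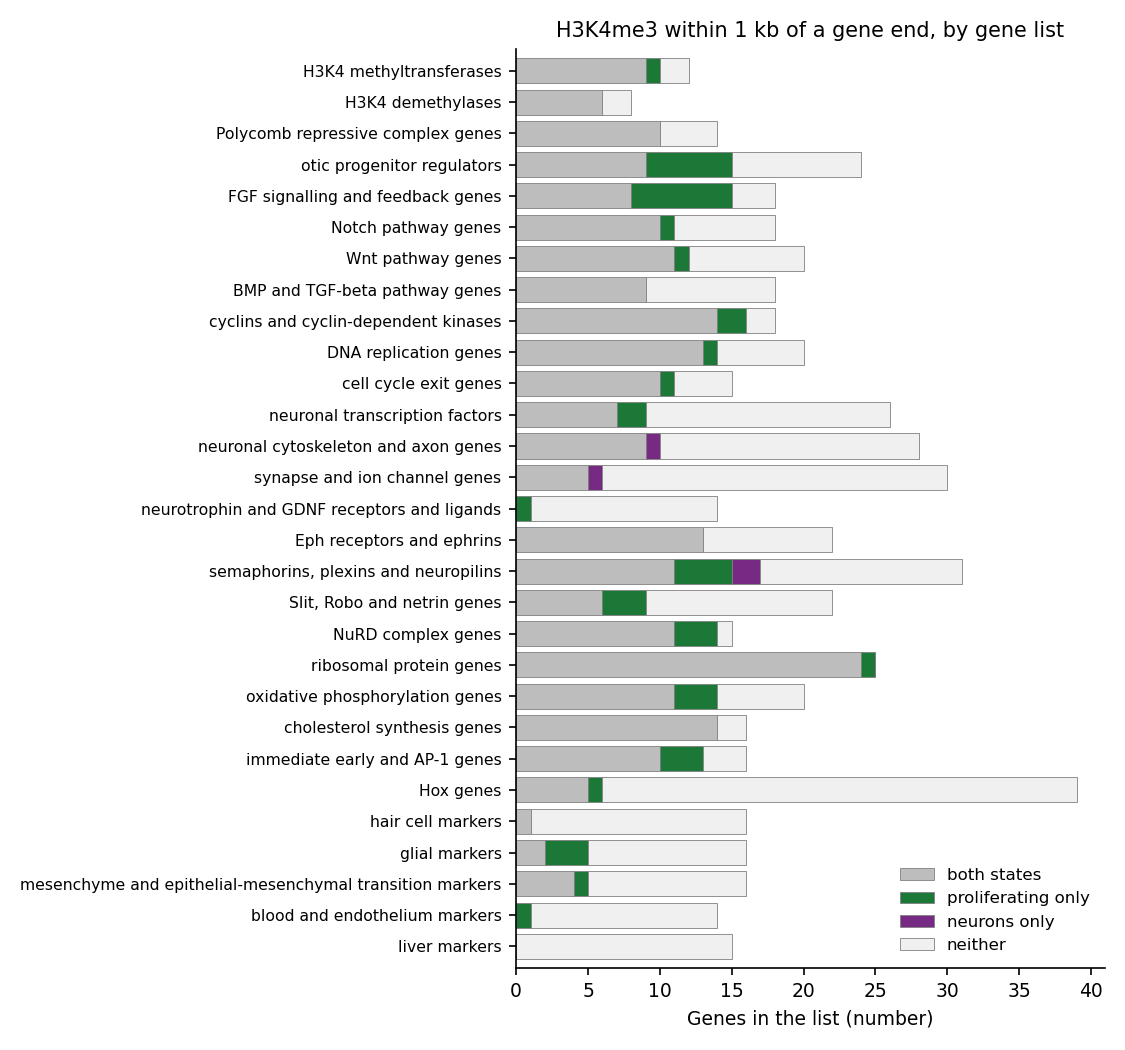
Number of genes (horizontal axis) in each of the 29 gene lists with H3K4me3 within 1 kb of a gene end in both states (mid grey), the proliferating list alone (green), the neuron list alone (purple) or in neither (light). FGF genes have 7 of 15 marked genes in proliferating cells only; purple appears in 3 lists.

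Housekeeping lists gave a reference for ranks. Of 25 ribosomal protein genes 24 were marked in both states, and Rps23 (5705 steps) in proliferating cells only. The 24 ranked higher in neurons by a median of 5.14 points, with a range from -24.97 points for Rps27a to 56.9 for Rps3. All 14 marked genes of cholesterol synthesis were kept, with a median difference of 1.40 points. In that list Fdps had a neuron peak of 15900 bp that joined 2 proliferating peaks, of 6000 bp and 5300 bp. Of 14 marked oxidative phosphorylation genes 3 (21.4%) were in proliferating cells only, and the median difference of the rest was -2.71 points. These medians lay nearer to 0 than those of the FGF and immediate early lists, and no list was tested.

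Over all genes marked in both states, the largest differences of rank were at genes of mixed roles. Ranked higher in neurons by the most were Gse1 (percentile 6.49 to 92.7), Ube2b (percentile 4.51 to 89.97), Hoxa4 (percentile 15.7 to 93.6), Vps37b, Eif3g, Tspyl4, Zbtb10 and Zrsr1. At Ube2b, Hoxa4, Eif3g and Zrsr1 the neuron peak joined 2 proliferating peaks, so the comparison there is not of 1 peak with 1. At Gse1 a single peak of 6650 bp in proliferating cells matched one of 7150 bp in neurons. Ranked lower by the most were P4htm (percentile 98.5 to 7.66), N4bp3, Gtpbp1, Hmga2, Gpsm3, Aldoc, Naif1 and Cerk. The proliferating peaks of P4htm, Gtpbp1 and Gpsm3 were split in neurons. At P4htm the part at the gene was 7400 bp wide and the other part, of 9100 bp, held 18097 steps at percentile 83.8. No peak came within 1 kb of the P4htm transcript start in either state. Aldoc, a glycolytic aldolase, was not split and had 7950 bp in proliferating cells against 2250 bp in neurons. Its neuron peak did not come within 1 kb of its transcript start, and its proliferating peak did.

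The extreme ratios of width were mostly joined or split peaks too. The 8 genes with the highest ratios, among them Ppan, Atxn7l2, Anapc2 and Nprl2, each had a neuron peak that joined 2 proliferating peaks. At Ppan, a ribosome biogenesis gene, a neuron peak of 12750 bp took in proliferating peaks of 1950 bp and 6650 bp. Of the 8 with the lowest ratios, H2bc18, Surf6 and Mrpl49 had a proliferating peak that was split, and Mta1 had different strongest peaks in the 2 states. Tle5, Irf2bpl, Tjp3 and Aldoc compared 1 peak with 1, though the neuron peak of Aldoc was not at its transcript start. Over one proliferating peak of 19000 bp lay the neighbours Tle2 and Tle5, which encode related Groucho-family corepressors. In neurons a peak of 3550 bp was listed at Tle5 and none reached Tle2.

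The widest peaks at gene ends included those of neural transcription factor genes. In proliferating cells Pou3f3 came first with 32850 bp, followed by Sox2 (26300 bp), Nfib (21850 bp), Ifi30, Med22 and Meis2 (19350 bp). In neurons Nfib came first (23150 bp), then Meis2 (22250 bp), Hoxa4, Car11, Sox2 and Pou3f3 (19900 bp). Nfib, Meis2, Sox2 and Pou3f3 are regulators of neural development and were among the 8 widest in both states. Ccdc85c was among the 8 widest in neurons and not in proliferating cells, with 18300 bp against 9050 bp. The neuron peaks of Hoxa4 and Car11 joined 2 proliferating peaks each, and the proliferating peaks of Pou3f3, Ifi30 and Med22 had 2 neuron peaks under them. No peak came within 1 kb of the Car11 transcript start in either state. For Ifi30 a peak did so in proliferating cells only.

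Matched peaks were alike in order and differed slightly in width. Over the 5439 pairs the rank correlation across peaks was 0.79 for total signal, 0.72 for highest signal and 0.70 for width. Peaks are not independent replicates, and the lists share the genome and the method, so these are descriptions. The neuron peak was wider in 60.9% of pairs, with a median ratio of 1.06. The highest point lay in the same bin in 40.2% of pairs, with a median shift of 50 bp. Only 23 proliferating peaks were split into several in neurons, and 34 neuron peaks joined several proliferating ones.

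The mark reached farther downstream of the transcript start in neurons, on the side of the gene body. At 3010 starts that were alone under a matched pair, the mark reached a median of 2296 bp downstream in proliferating cells and 2750 bp in neurons. It reached farther in neurons at 68.3% of starts and less far at 24.2%, with a median difference of 250 bp. Upstream the median reach was 1411 bp in proliferating cells against 1290 bp in neurons. There it was longer in neurons at 34.6% and shorter at 54.4%, with a median difference of -50 bp, which is 1 bin. The highest point moved with it, from a median of 98 bp to 218 bp downstream of the start.

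Neuron peaks held more steps as well, so the starts were also divided by the ratio of signal between the states. Among the 1505 starts with lower ratios the median downstream difference was 100 bp, with 59.1% longer in neurons. In the 1505 with higher ratios it was 450 bp, with 77.5% longer. Upstream the medians were -100 bp and -50 bp. The part of library depth in the reach of the mark was not tested.

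**Figure D5:**
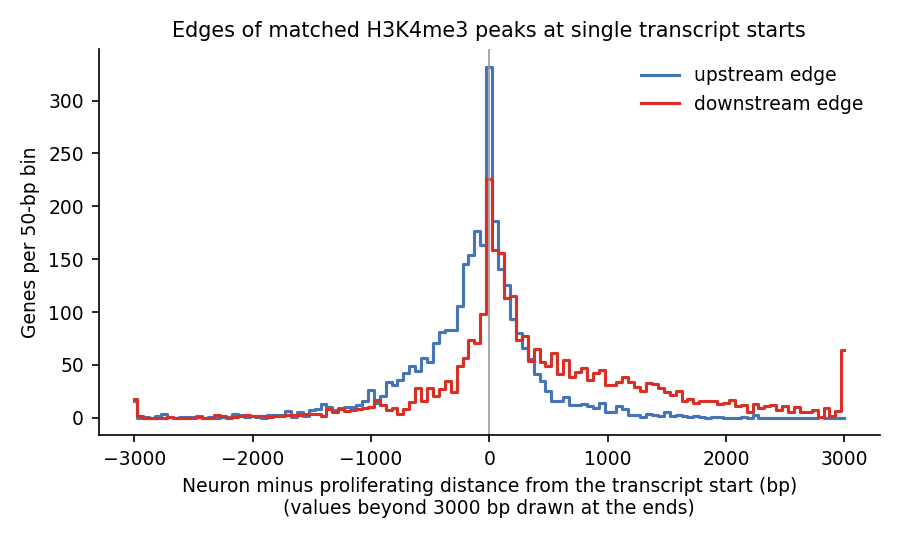
Number of genes per bin of 50 bp (vertical axis) by the neuron minus proliferating distance of a peak edge from the transcript start (horizontal axis, bp), for the upstream edge (blue) and the downstream edge (red) at 3010 single starts. The red curve is heavier on the right (68.3% longer in neurons) and the blue curve on the left (54.4% shorter); values past 3000 bp are drawn at the ends.

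Some genes marked in both states differed in which start carried the mark. Of 2761 genes with several starts in the table, 1131 were marked at some start in both states, and 45 of these differed in which starts were marked. In 30 a start was without the mark in neurons, in 17 a start was added, and Nav2 and Arhgef2 did both. At Nav2 the proliferating peak lay over the downstream start (chr7:49244851-49251150, 7338 steps, percentile 52.9) and the neuron peak over the upstream start (chr7:48958251-48965350, 17617 steps, percentile 82.5), with no overlap. At Arhgef2, a microtubule-bound activator of RhoA, the proliferating peak took in the first start and the neuron peak the last. Added starts at Elavl2, a neuronal relative of Elavl3, at Plxnb2 and at Vegfa came within 1 kb of a peak that was wider in neurons, at Elavl2 7700 bp against 3650 bp. Separate downstream peaks were listed in proliferating cells only at later starts of Rara, a retinoic acid receptor (15400 bp, 12892 steps), Map4, Pik3r1, Dgkz and Prickle1. Except at Rara and Dgkz these peaks were under the neuron floor, and by highest signal the Rara peak ranked at percentile 1.81 only.

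CHD4, the remodelling ATPase of NuRD, and p300, an acetyltransferase of enhancers and promoters, were profiled in the same states and did not enter the choice of classes. Proliferating CHD4 peaks overlapped 29.5% of shared proliferating peaks (28.3 to 30.7%) and 20.9% of proliferating-only peaks (19.1 to 22.8%). Above the neuron floor the order was the other way, with intervals that overlapped slightly: 57.8% of the 90 proliferating-only peaks (46.9 to 68.1%) and 45.5% of the 3079 shared ones (43.7 to 47.3%) overlapped proliferating CHD4. Neuron CHD4 overlapped 47.8% of those 90 (37.1 to 58.6%) and 35.0% of the shared ones (33.3 to 36.7%), and neuron p300 11.1% (5.46 to 19.5%) and 3.80% (3.15 to 4.54%). For proliferating p300 the shares were 34.4% (24.7 to 45.2%) and 33.3% (31.6 to 35.0%) above the floor, and 12.3% of all proliferating-only against 20.6% of all shared peaks. The peaks without H3K4me3 in the neuron list thus included sites with listed CHD4 or p300 in neurons. The 90 peaks were also wider, with a median of 5225 bp. The median was 4450 bp for all proliferating peaks at or above the floor and 3900 bp for all shared proliferating peaks. Wide peaks have more chance to overlap, and the part of width was not tested. Of the 107 neuron-only peaks, 21 (19.6%, 12.6 to 28.4%) overlapped neuron CHD4 and 6 (5.61%, 2.09 to 11.8%) proliferating CHD4. Of shared neuron peaks 22.1% and 29.4% did, so the first share lay within the interval of the neuron-only peaks and the second above it.

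The promoter sequences differed little between kept and state-only genes, and far more from unmarked genes. The ratio of observed to expected CpG over 300 bases had a median of 0.84 at genes marked in both states, 0.77 at genes in proliferating cells only, 0.73 at the 69 of those above the floor with a sequence, 0.74 at genes in neurons only and 0.30 at genes in neither. The ETS motif CCGGAA was found in 33.3% of promoters marked in both states (32.0 to 34.6%), 26.5% of those in proliferating cells only (24.3 to 28.8%) and 11.2% of unmarked ones. TATAAA was in 5.13%, 6.35% and 18.2%. TGACTCA was in 2.18% of promoters marked in both, 3.28% of proliferating-only and 8.33% of neuron-only ones (8 of 96, interval 3.67 to 15.8%). It was in 5.78% of unmarked promoters and 4.50% of all. Classed by a peak at the promoter itself, 5 of 80 neuron-only promoters held it (6.25%, 2.06 to 14.0%). Each motif was found in every class and in unmarked promoters.

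MicroRNA hairpins near these peaks were classed in the same way. Of 1005 hairpins, 94 lay within 1 kb of a peak in both states, 39 in proliferating cells only (29.3% of 133) and 22 in neurons only (2.52% of 872). A nearby peak may belong to another gene's promoter. The mature sequences below belong to the families named in the next sentences, with the seed, bases 2 to 8, in capitals.
miR-132-3p: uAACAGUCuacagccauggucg
miR-212-3p: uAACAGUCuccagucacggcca
miR-93-5p: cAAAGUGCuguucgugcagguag
miR-106b-5p: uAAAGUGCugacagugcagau
miR-15b-5p: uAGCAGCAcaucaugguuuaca
miR-16-5p: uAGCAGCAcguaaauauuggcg
miR-195a-5p: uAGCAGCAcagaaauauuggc
miR-497a-5p: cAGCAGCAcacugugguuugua
The first pair share the seed AACAGUC, miR-93-5p and miR-106b-5p share AAAGUGC, and the last 4 share AGCAGCA. The hairpins of miR-132, known from neurons, and of miR-212 lie under 1 proliferating peak (chr11:75169251-75174700, 9203 steps, percentile 70.6) that also reaches the gene Hic1 and has no neuron partner. The hairpins Mir25, Mir93 and Mir106b lie in the host gene Mcm7. There the proliferating peak of 5200 bp ended 3033 bp or more from them, and the neuron peak of 14050 bp covered them. Mir15b and Mir16-2 on chromosome 3, and Mir195a and Mir497 on chromosome 11, likewise came within reach of neuron peaks of 6500 bp and 9750 bp, where proliferating peaks of 4600 bp and 4750 bp stopped short. For 20 of the 22 neuron-only hairpins the neuron peak overlapped a proliferating peak. The neuron-only calls therefore mostly describe how far a listed peak reached. Such a peak can also lie over a neighbouring gene, as the one at Mir25, Mir93 and Mir106b does over Cops6. Of the 39 proliferating-only hairpins, 3 had a proliferating peak that overlapped a neuron peak.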

How the data were processed

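H3K4me3 CUT&Tag libraries of 2 states, 1 each, were compared through their peak lists. Per the submitters' processing notes, Bowtie2, deepTools and SEACR were used with the build mm10; versions, thresholds and the use of the IgG libraries (not analysed here) are not given in the sources used here. Each peak carries 2 signal values as deposited by the authors, a total and a highest signal, in bins of 50 bp. No source used here gives their scaling and depth is unknown, so signal mainly ranked peaks within a list. Steps were also set side by side between the lists, and the proliferating list was trimmed at the neuron floor. A difference there cannot be told apart from one in depth or scaling.

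Overlaps (at least 1 bp), widths, percentiles of total signal and gene calls were computed in Python 3.11.15 (pandas 2.3.3, numpy 2.4.6, SciPy 1.17.1), and figures in matplotlib 3.10.9. RefSeq tables of GRCm38.p6 gave 21887 protein-coding genes without strand, promoters for 17492 of them and 1005 miRNA hairpins. Peaks within 1 kb of a gene end marked the gene. The overlap and gene code was tested on simulated data: 1500 of 1500 shifted neuron peaks and 200 of 200 planted gene marks were called rightly.

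The members and the 29 gene lists (561 genes, 560 found) were chosen with earlier results of these data known. Named genes were 12 fixed ones, list members in 1 state only, the 12 strongest state-only genes per state, and the 8 most extreme by rank change, width and width ratio; a part is left out for length, and others are said to be chosen after their values were seen. Alternatives were other overlap rules, gene windows of 500 bp and 2.5 kb, transcript starts, the stronger 50% of each list, lists of equal length and other measures of rank; trimming at the neuron floor and leaving out unplaced chromosomes were chosen after seeing the data. Some list members are not reported here by name.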

Additional observations from a re-analysis of the deposited data

How the results depend on the processing

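With 1 library a state, no result had a replicate error and depth is unknown, so weak peaks limit every count. No paired analysis was possible because each state had 1 library and no result came from a test. Overlap gaps of 1 kb, gene windows of 500 bp or 2.5 kb and leaving out unplaced chromosomes left the main values within their intervals or within 1.5 times the main counts; the settings below did not. The cause of each shift was not tested beyond the shorter lists that the settings make.

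With 50% of a peak required to be covered, 96.6% of neuron peaks were shared and 193 were in neurons only. Ranked by highest signal, proliferating-only and shared peaks had median percentiles of 27.0 and 60.1. Ranked by total signal divided by width, these were 28.6 and 58.7, and neuron-only peaks were at 10.4. Transcript starts alone gave 79 genes in neurons only. Classing by peaks at the promoter itself gave a CpG ratio of 0.848 for genes marked in both states.

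The stronger 50% of each list shared 69.4% of proliferating and 92.0% of neuron peaks, with 1143 and 225 in 1 state only. There CHD4 overlapped 39.2% of proliferating-only, 43.1% of shared and 11.1% of neuron-only peaks. Median widths were 4300 and 5000 bp, 3317 genes were marked in both states and 287 in neurons only, and 13 list genes were in neurons only.

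Lists of equal size by total signal shared 88.4% of each, with 654 and 655 peaks in 1 state only and CHD4 shares of 36.9%, 32.2% and 7.02% in the same order. The proliferating median width was 3950 bp and the width ratio 1.05, with 660 and 713 genes, and 24 and 15 list genes, in 1 state only. Equal size by highest signal shared 81.3% of each, with 1051 and 1052 peaks, CHD4 shares of 18.8% and 31.2%, 1052 and 1059 genes, and 16 and 53 list genes. Equal sizes make the 2 state-only counts nearly equal by construction. Whether CHD4 overlapped more proliferating-only or shared peaks differed between settings.

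Different floors were put on the proliferating list alone, which by construction lowers its own state-only counts and raises those of neurons. At the neuron floor in steps, 97.2% of proliferating and 54.97% of neuron peaks were shared, with 90 and 2533 in 1 state only and CHD4 shares of 57.8%, 45.5% and 6.28%. The median width was 4450 bp and the ratio 1.04, with 3859 genes in both states, 137 and 2702 in 1 only, and 9 and 62 list genes. At the floor as deposited these were 97.6%, 50.5%, 69 and 2783, then 59.4%, 48.0% and 6.83%, then 4500 bp and 1.04, then 3571, 117 and 2990 genes, and 9 and 74 list genes. At the floor divided by the median ratio, 87.3% and 89.8% were shared, with 733 and 573 in 1 state only and CHD4 shares of 35.2%, 31.8% and 6.81%. The width was 3950 bp and the ratio 1.05, with 732 and 628 genes and 26 and 13 list genes.

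Of the 84 genes with a strong proliferating peak and no neuron peak, 67 kept that call with lists of equal size by highest signal, 68 at the floor as deposited, 63 at transcript starts, 83 with the window of 2.5 kb and 82 with that of 500 bp. Of the 134 neuron-only genes, 34 kept it in the stronger 50%, 63 at transcript starts, 95 with 2.5 kb and 111 with 500 bp.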

Other observations

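The share of proliferating H3K4me3 peaks found in neurons differed between chromosomes. It was lowest on the X chromosome, at 56.6% (60 of 106, exact interval 46.6 to 66.2%), and highest on chromosome 3, at 86.2% (368 of 427, 82.5 to 89.3%), with chromosome 5 next at 83.8% (80.3 to 87.0%). Signal moved with it: the median proliferating peak held 5268.5 steps on the X and 8610 steps on chromosome 3, against 7102.5 over all peaks. On chromosome 5 it held 7168 steps, close to the overall median. The neuron to proliferating ratio of total steps in matched peaks had a median of 1.69 on chromosome 5 and 1.353 on chromosome 11, the extremes of the 20 chromosomes. Whether copy number differs between the libraries was not tested.

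Proliferating-only peaks above the neuron floor lay over a group of predicted genes on chromosome 4. Gm13275 and Gm13278 shared a peak of 4800 bp with 16258 steps, and Gm13285 and Gm13287 had peaks of 1500 bp and 1750 bp with 11090 and 11062 steps. All were above the neuron floor with no neuron peak. Predicted genes with such neighbouring numbers can be near-identical copies, so these positions are uncertain.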
